A study of Homo sapiens with 6 samples.

Results

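The genes described here are 36 members of the unfolded protein response and the integrated stress response, measured in H661 human lung carcinoma cells after knockdown of SALL4. They were chosen by name, as genes whose roles in these pathways are established, and with earlier results of these data known. Each was read from the brightest probe set that the array annotation gives to that symbol alone. Of the 36, 35 had such a probe set, out of 18404 genes on the array. PDIA3 had none, since its probe sets carry more than 1 symbol. There were 3 arrays of H661 cells transduced with a SALL4 shRNA (SALL4-sh) and 3 of cells with a scrambled shRNA (Scr-sh). Cells of both groups grew in RPMI with serum and carried a lentiviral hairpin, 1 sequence per group, and the labels name no inducer of stress in either. Whether the replicates are independent cultures is not stated in the labels, and the spread behind each p-value may therefore be technical. In extracts of whole cultures, fewer cells with an RNA and less of it per cell cannot be told apart.

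Proteins that enter the endoplasmic reticulum (ER) are folded there by chaperones and by enzymes that form disulfide bonds. When unfolded proteins accumulate, 3 sensors in the ER membrane respond, and they are encoded by ERN1 (IRE1), ATF6 and EIF2AK3 (PERK). IRE1 splices the RNA of XBP1 into a form that encodes an active transcription factor, ATF6 is cut to release another, and together they induce chaperones and the machinery that returns misfolded proteins to the cytosol for degradation. PERK phosphorylates the initiation factor eIF2, as do kinases that sense other stresses, which slows translation in general but favours that of ATF4. ATF4 then induces genes of amino acid supply and, with CHOP (encoded by DDIT3), genes of recovery or cell death. An expression array measures the RNA of these genes, and neither the splicing of XBP1, the cutting of ATF6 nor the phosphorylation of eIF2 can be read from it.

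The knockdown was visible on each array. SALL4 had normalized intensities of 33.6, 31.9 and 26.5 in SALL4-sh, against 126, 104 and 130.2 in Scr-sh, a log2 fold change of -1.97 ± 0.15 (standard error, limma adjusted p = 0.00388). All intensities are on a linear scale with a floor of 8, and no value of the 35 members stood at the floor. Of 6 epithelial genes tested, the E-cadherin gene CDH1 was higher, with 16.1 to 17.3 in SALL4-sh and 8 to 10.5 in Scr-sh, and 5 were not called. The adjusted p of CDH1 was 0.0523 to 0.0637 without SALL4-sh replicate 1, 2 or 3 or Scr-sh replicate 3. EPCAM, an epithelial surface protein, averaged 996 ± 139 in SALL4-sh and 746 ± 154 in Scr-sh (SD, n = 3 each), but KRT8, KRT19 and CLDN7 had group means of 9.01 to 13.0 and CLDN4 stood at the floor on all 6 arrays. KRT18, also epithelial, averaged 41.7 ± 14.3 in SALL4-sh and 56.1 ± 18.3 in Scr-sh. Its groups overlapped, with a log2 fold change of -0.44. Fold changes of the 6 epithelial genes were positive for 3 and negative for 3. VIM, the mesenchymal intermediate filament, averaged 1042 ± 101 in SALL4-sh and 1336 ± 255 in Scr-sh (SD, n = 3 each). The VIM groups overlapped (log2 fold change -0.35, limma adjusted p = 0.278). Of 5 mesenchymal genes tested, 0 were called, with 3 positive and 2 negative fold changes. ZEB1 and TWIST1 each had a log2 fold change of 0.29. The lung lineage genes NKX2-1 and SFTPB lay at or near the floor, with group means of 8 to 14.3. Of 6 leukocyte genes measured, PTPRC, CD3E and LYZ stood at the floor on all 6 arrays. CD14 and CD79A had group means of 8.90 to 15.0, and CD68, a macrophage lysosomal protein, had 33.0, 35.4 and 30.5 in SALL4-sh, against 34.0, 69.9 and 71.6 in Scr-sh, with overlapping groups and an uncalled log2 fold change of -0.75. The summed intensity of the 6 ran from 78.2 to 81.1 in SALL4-sh and from 81.5 to 121 in Scr-sh. Interferon-stimulated genes moved with the group: of 9 measured, 7 were lower in SALL4-sh and 0 higher, and their summed intensity ran from 166 to 251 in SALL4-sh and from 1529 to 3651 in Scr-sh, with the highest sum in Scr-sh replicate 2. The part of these genes and of the leukocyte genes in the results below was not tested. Leaving out Scr-sh replicate 2 gave 2 members higher and 4 lower in place of the counts below, beside 854 higher and 641 lower of all genes.

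Of the 35 measured members, XBP1, SEL1L, ASNS, ERO1A and ATF3 were lower in SALL4-sh and SDF2L1 was higher (limma, adjusted p under 0.05), and the other 29 were not called. This is 14.3% of the members lower and 2.86% higher, where 4.20% of all 14511 genes tested were lower and 4.36% higher. The members had been listed with earlier results of these data known, so the share is a description. Among the 11152 genes above the median intensity of all probe sets, 6.91% were lower and 7.76% higher, and the members then gave 5 lower and 1 higher, with TRIB3 called (adjusted p = 0.0406) and ATF3 not called (adjusted p = 0.0883). With no filter on dim genes, 1.33% of 18404 genes were lower and 1.18% higher, and 2 members were called in each direction. The 3 values of each group did not overlap for 20 members, 11 of them lower (31.4%) and 9 higher (25.7%), where 12.5% of all genes tested were lower and 15.0% higher in this sense. At an unadjusted p under 0.05, 9 members were lower and 6 higher by limma, where 10.9% of all genes tested were lower and 13.1% higher, and 6 were lower and 6 higher by an unmoderated test of each gene, where 8.79% of all were lower and 10.5% higher. For 3 arrays against 3 an exact two-sided permutation test cannot give a p below 0.1, the value that each of these 20 genes has.

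**Figure D1:**
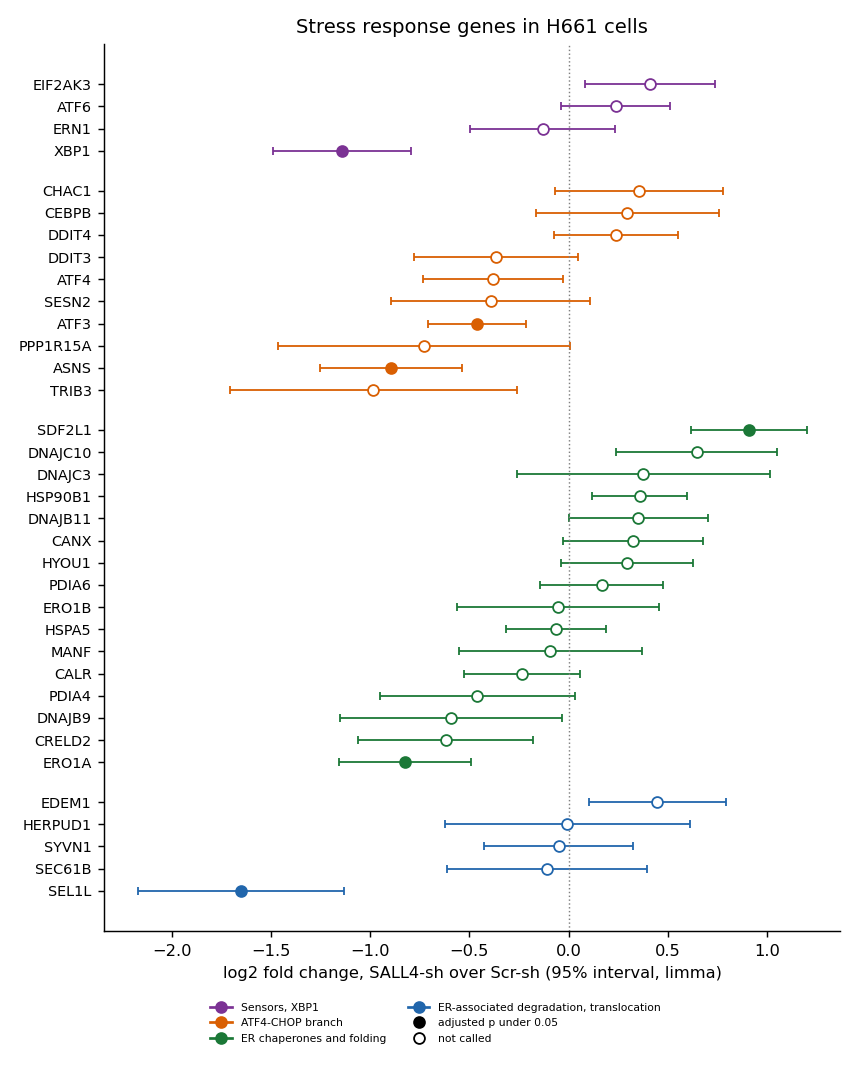
Change of the 35 measured members in SALL4-sh relative to Scr-sh, as log2 fold change (x axis), grouped by role. Points are the estimates, whiskers their 95% intervals from limma with 3 arrays in each group, and filled symbols mark an adjusted p under 0.05. SEL1L at -1.65 and XBP1 at -1.14 lie farthest below 0, and SDF2L1 at 0.91 lies farthest above it.

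The promoters of the members were searched for exact matches to elements of the unfolded protein response. The ER stress response element (ERSE) is CCAAT, 9 bases and CCACG, and the second form (ERSE-II) is ATTGG, 1 base and CCACG. Both are bound by ATF6 with the factor NF-Y. In the RefSeq promoters (GRCh38.p14, from 250 bases before the start site to 50 after it, both strands searched), ERSE was found in 7 of the 35 members with an entry and in 22 of all 27305 promoters (0.0806%), and ERSE-II in 3 members and in 15 of all promoters (0.0549%). As the members were listed for their known part in this response, these shares are a description and not a test. The members with ERSE were XBP1, HSPA5, HSP90B1, CRELD2, CALR, CANX and ERO1B, and those with ERSE-II were HYOU1, SDF2L1 and HERPUD1. The stretches below belong to genes of this set that rose, fell or were not called in SALL4-sh. They are printed 5′ to 3′ on the strand of the gene, with the element in capitals. On that strand XBP1, HSPA5, HERPUD1 and the HSP90B1 copy shown read as spelled above, and SDF2L1 and CRELD2 hold the reverse complement.
SDF2L1: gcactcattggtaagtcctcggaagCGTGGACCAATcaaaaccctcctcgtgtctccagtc
XBP1: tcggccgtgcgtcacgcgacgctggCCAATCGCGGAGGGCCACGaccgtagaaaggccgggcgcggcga
HSPA5: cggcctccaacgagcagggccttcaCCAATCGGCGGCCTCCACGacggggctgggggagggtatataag
HSP90B1: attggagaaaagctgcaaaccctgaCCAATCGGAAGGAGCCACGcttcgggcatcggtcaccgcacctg
CRELD2: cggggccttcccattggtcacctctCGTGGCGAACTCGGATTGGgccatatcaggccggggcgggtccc
HERPUD1: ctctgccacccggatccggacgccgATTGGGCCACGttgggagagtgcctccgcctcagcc

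These stretches lie at chr22:21642089-21642149 (plus strand) for SDF2L1, chr22:28800578-28800646 (minus strand) for XBP1, chr9:125241366-125241434 (minus strand) for HSPA5, chr12:103930191-103930259 (plus strand) for HSP90B1, chr22:49918529-49918597 (plus strand) for CRELD2 and chr16:56932000-56932060 (plus strand) for HERPUD1, all upstream of the start site.

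The RNA of the 3 sensors was not called, while that of XBP1 fell. XBP1 had intensities of 59.4, 53.9 and 43.9 in SALL4-sh, against 123, 108 and 114 in Scr-sh. No SALL4-sh value reached the range of the Scr-sh values, and the lowest, on SALL4-sh replicate 3, was the farthest from the other group. SALL4-sh cells had 45.3% of the Scr-sh level, a log2 fold change of -1.14 ± 0.14 (standard error, limma adjusted p = 0.0106). XBP1 passed the threshold without each array in turn and under 15 of the 16 alternative settings, and missed it with the unmoderated test (adjusted p = 0.0572). The probe set reports spliced and unspliced XBP1 RNA together.

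ERN1, which encodes the nuclease that splices XBP1 RNA, had 31.0, 24.3 and 32.2 in SALL4-sh, against 33.5, 28.3 and 33.6 in Scr-sh, and the groups overlapped (log2 fold change -0.13, 95% interval -0.50 to 0.23). EIF2AK3, the kinase of eIF2 in the ER membrane, had 34.8, 37.0 and 39.0 in SALL4-sh, against 24.0, 31.8 and 28.0 in Scr-sh, higher on each SALL4-sh array (log2 fold change 0.41, limma adjusted p = 0.128). ATF6 had 209.6, 222 and 241 in SALL4-sh, against 178, 205 and 188 in Scr-sh, again with no overlap but with a log2 fold change of only 0.24 (limma adjusted p = 0.274). The direction of XBP1 was thus opposite to that of the values of EIF2AK3 and ATF6, whose differences did not pass the test.

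Of the 10 members of the ATF4-CHOP branch, ASNS and ATF3 were lower and 0 were higher. The share lower was 20%, where 4.20% of all genes tested were lower. ASNS encodes asparagine synthetase, a target of ATF4 in amino acid starvation. Its intensities were 268, 258 and 211 in SALL4-sh, against 519, 415 and 434 in Scr-sh, with a wide gap between the highest SALL4-sh and the lowest Scr-sh value, and its log2 fold change was -0.89 ± 0.15 (standard error, limma adjusted p = 0.0209). ASNS kept its call without Scr-sh replicate 2 (adjusted p = 0.0252) and lost it without any other single array (adjusted p of 0.0548 to 0.0676), with no filter (adjusted p = 0.0602) and with the unmoderated test (adjusted p = 0.0812). ATF3, a stress-induced factor of the same bZIP class as ATF4, had 21.5, 21.1 and 20.7 in SALL4-sh, against 29.8, 30.3 and 27.0 in Scr-sh. Both groups were tight, and the change was small, a log2 fold change of -0.46 ± 0.10 (standard error, limma adjusted p = 0.0456). ATF3 kept its call under 6 of the 16 alternatives and lost its call without any single array (adjusted p of 0.0800 to 0.136).

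ATF4 itself had 329.9, 289 and 299 in SALL4-sh, against 472, 346 and 386 in Scr-sh on its brightest probe set, lower on each SALL4-sh array but not called (log2 fold change -0.38, 95% interval -0.74 to -0.030, limma adjusted p = 0.175). Its other, dimmer probe set gave 31.2, 28.8 and 20.7 in SALL4-sh, against 27.3, 26.8 and 13.9 in Scr-sh, with overlapping groups and a log2 fold change of 0.29. The 2 probe sets of ATF4 therefore disagree in direction. DDIT3, which encodes CHOP, had 132, 112 and 145 in SALL4-sh, against 154, 204 and 147 in Scr-sh (log2 fold change -0.37, limma adjusted p = 0.262). Its groups were apart by little, since the highest SALL4-sh value lay just under the lowest Scr-sh value.

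TRIB3, a pseudokinase induced by ATF4 and CHOP, had 13.6, 9.50 and 21.8 in SALL4-sh, against 29.5, 29.7 and 24.9 in Scr-sh. Its values were the lowest in SALL4-sh replicate 2, close to the floor, and the wide spread between the SALL4-sh arrays left a log2 fold change of -0.98 uncalled (standard error 0.30, limma adjusted p = 0.103). Without SALL4-sh replicate 3, the highest of its group, TRIB3 passed the threshold (adjusted p = 0.0455), as it did with the 50th percentile filter (adjusted p = 0.0406). DDIT4, an inhibitor of mTORC1, had 53.9, 59.0 and 66.9 in SALL4-sh, against 53.0, 45.9 and 53.1 in Scr-sh (log2 fold change 0.24, limma adjusted p = 0.335). The groups overlapped for the other 4. PPP1R15A, whose product GADD34 guides the dephosphorylation of eIF2, had a log2 fold change of -0.73 with values from 24.9 to 39.3 in SALL4-sh and from 37.4 to 77.1 in Scr-sh. SESN2, a leucine sensor that restrains mTORC1, had one of -0.39, CEBPB, a bZIP partner of CHOP, one of 0.30, and CHAC1, an enzyme that breaks down glutathione, one of 0.35. Within this branch 7 members had negative and 3 positive fold changes, and CHAC1, a target of ATF4 like ASNS, was among the positive ones.

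Of the 16 measured ER chaperones and folding enzymes, SDF2L1 was higher, ERO1A was lower, and 14 were not called. The share was 6.25% in each direction, beside 4.36% of all genes tested higher and 4.20% lower. SDF2L1 is a small ER protein that works with the chaperone BiP and its cochaperones. It had 52.7, 66.6 and 60.9 in SALL4-sh, against 31.9, 31.7 and 32.0 in Scr-sh, and the 3 Scr-sh values lay within 1 unit of each other. SALL4-sh cells had 188% of the Scr-sh level, a log2 fold change of 0.91 ± 0.12 (standard error, limma adjusted p = 0.0117). SDF2L1 lost its call without SALL4-sh replicate 3 (adjusted p = 0.0528) and with the unmoderated test (adjusted p = 0.0501), and kept it under the other 14 settings.

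ERO1A, the oxidase that recharges protein disulfide isomerase, had 289.8, 225 and 264 in SALL4-sh, against 488, 472 and 414 in Scr-sh. The groups were well apart, and the log2 fold change was -0.82 ± 0.14 (standard error, limma adjusted p = 0.0218). The adjusted p was 0.0653 to 0.0746 without SALL4-sh replicate 2, SALL4-sh replicate 3 or Scr-sh replicate 1, 0.0571 with no filter and 0.0780 with the unmoderated test. ERO1B, the other oxidase of this family, had a log2 fold change of -0.052 with values near the floor, from 11.5 to 14.2 in SALL4-sh and from 9.81 to 15.9 in Scr-sh.

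HSPA5, which encodes BiP and is the usual marker of an unfolded protein response, averaged 1184 ± 52.2 in SALL4-sh and 1239 ± 73.9 in Scr-sh (SD, n = 3 each). Its groups overlapped, and SALL4-sh cells had 95.6% of the Scr-sh level (95% interval 80.3% to 114%, limma adjusted p = 0.786). HSP90B1, the HSP90 of the ER, had 2096, 2143 and 2204 in SALL4-sh, against 1604, 1769.7 and 1658 in Scr-sh. It was higher on each SALL4-sh array by a small amount, a log2 fold change of 0.36 ± 0.099 (standard error, limma adjusted p = 0.0827), and it passed the threshold with no filter (adjusted p = 0.0432) and with trend and robust estimation in limma (adjusted p = 0.0182).

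Among the partners of BiP, DNAJC10, which reduces disulfide bonds of proteins bound for degradation, had 589, 539.9 and 536 in SALL4-sh, against 367, 427 and 284 in Scr-sh (log2 fold change 0.65, limma adjusted p = 0.0696). DNAJB11, which delivers unfolded proteins to BiP, had 334, 442 and 439 in SALL4-sh, against 295, 329.5 and 321 in Scr-sh (log2 fold change 0.35, limma adjusted p = 0.208). HYOU1, which exchanges the nucleotide of BiP, had 149, 132 and 128 in SALL4-sh, against 98.3, 109 and 128 in Scr-sh (log2 fold change 0.29, limma adjusted p = 0.261). In these 3 genes the SALL4-sh values were all above the Scr-sh values, in HYOU1 by less than 1 unit, and none passed the test. DNAJC10 passed without Scr-sh replicate 2 (adjusted p = 0.0364), with array weights and with trend and robust estimation. DNAJC3 and DNAJB9, other J-domain proteins of the ER, had overlapping groups and log2 fold changes of 0.38 and -0.59.

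Opposite values came from CRELD2, a secreted ER stress protein, with 27.9, 39.2 and 24.9 in SALL4-sh, against 47.5, 44.6 and 46.6 in Scr-sh (log2 fold change -0.62, limma adjusted p = 0.0954). CRELD2 passed the threshold without SALL4-sh replicate 2 (adjusted p = 0.0460), whose value was the highest of its group. PDIA4, a disulfide isomerase, had 329.6, 319 and 313 in SALL4-sh, against 426, 342 and 588 in Scr-sh (log2 fold change -0.46, limma adjusted p = 0.239), and its Scr-sh values were spread widely. CALR, the lectin chaperone calreticulin, had 982, 894 and 868 in SALL4-sh, against 1206, 999 and 1031 in Scr-sh (log2 fold change -0.23, limma adjusted p = 0.309). CANX, the membrane-bound partner of calreticulin, overlapped between the groups and had a positive log2 fold change, 0.32. PDIA6 and MANF, another isomerase and a secreted ER protein, had log2 fold changes of 0.17 and -0.093 with overlapping groups.

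**Figure D2:**
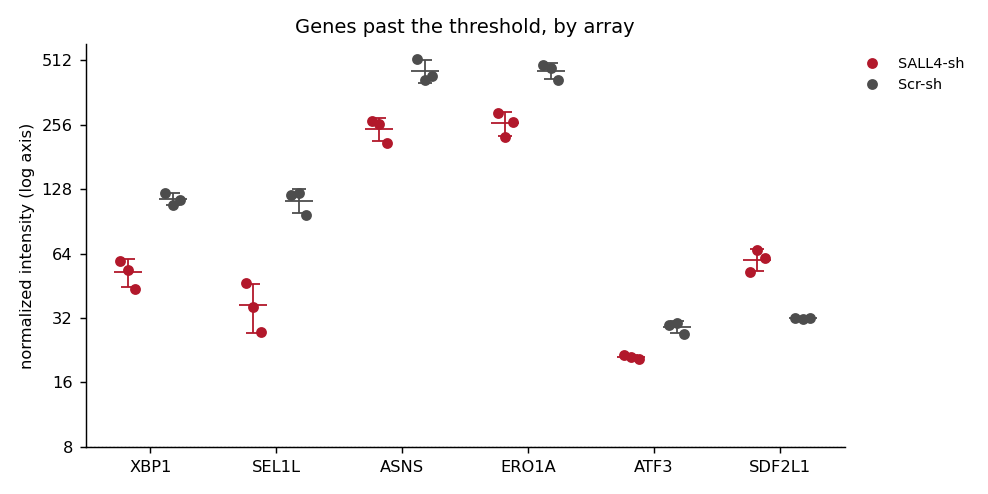
Normalized intensity (log axis) of the 6 genes past the threshold on each of the 6 arrays. Points are single arrays, horizontal bars are group means and whiskers the SD (n = 3). The SALL4-sh points of SDF2L1 lie above its Scr-sh points, and those of the other 5 genes lie below.

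SEL1L had the most negative fold change of the 35 members. It is the adaptor that joins substrates to HRD1, the ubiquitin ligase of ER-associated degradation. Its intensities were 46.5, 35.9 and 27.6 in SALL4-sh, against 120.4, 123 and 96.5 in Scr-sh, with the highest SALL4-sh value far under the lowest Scr-sh value, and SALL4-sh cells had 31.8% of the Scr-sh level (95% interval 22.2% to 45.6%). The log2 fold change of -1.65 ± 0.22 (standard error, limma adjusted p = 0.0114) stayed past the threshold without each array in turn, and missed it with no filter (adjusted p = 0.0526) and with the unmoderated test (adjusted p = 0.0734). SYVN1, which encodes HRD1 itself, had 41.0, 39.5 and 34.8 in SALL4-sh, against 35.1, 37.1 and 48.1 in Scr-sh, with overlapping groups and a log2 fold change of -0.050 (95% interval -0.42 to 0.32). The adaptor and the ligase thus gave different results on the same arrays.

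EDEM1, which draws misfolded glycoproteins from the folding cycle, had 55.8, 56.0 and 45.6 in SALL4-sh, against 34.0, 42.7 and 38.9 in Scr-sh, higher on each SALL4-sh array (log2 fold change 0.45, limma adjusted p = 0.117). HERPUD1, a partner of HRD1 that ER stress induces, had 152, 151 and 152 in SALL4-sh, against 201, 101 and 173 in Scr-sh. Its SALL4-sh values were nearly equal and lay inside the wide range of the Scr-sh values, which left a log2 fold change of -0.0070 with a 95% interval of -0.62 to 0.61. Without Scr-sh replicate 2 the fold change of HERPUD1 was -0.30, and without Scr-sh replicate 1 it was 0.19. SEC61B, a subunit of the channel through which proteins enter the ER, had a log2 fold change of -0.11 and overlapping groups.

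**Figure D3:**
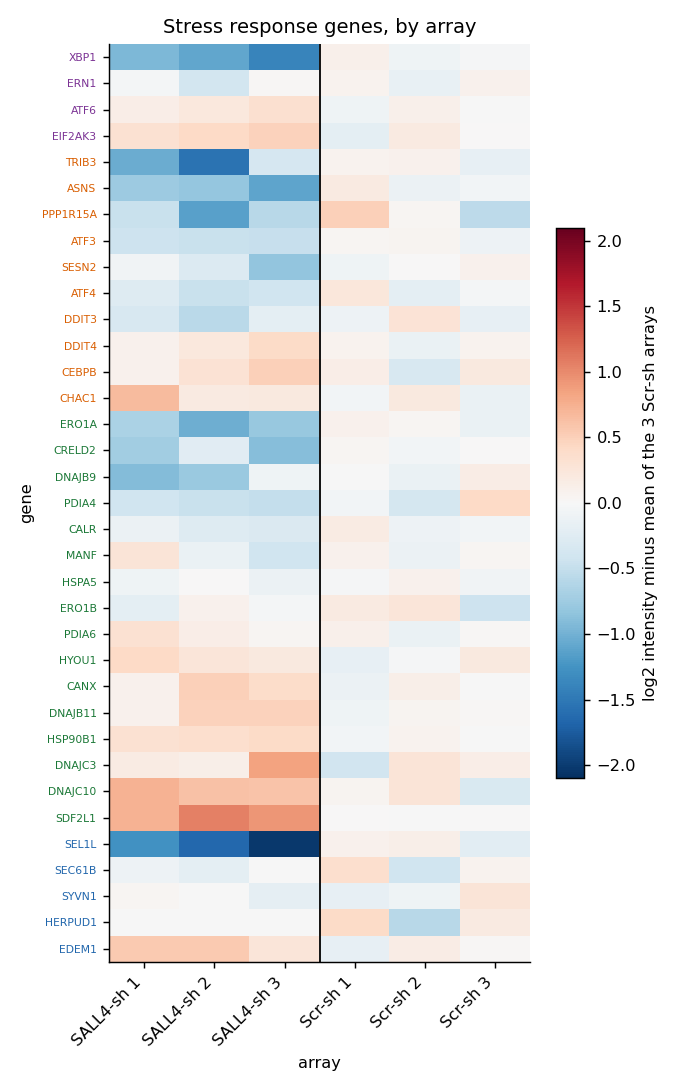
Log2 intensity of the 35 measured members (rows) on each of the 6 arrays (columns), minus the mean of the 3 Scr-sh arrays. Gene names are coloured by role (purple sensors and XBP1, orange ATF4-CHOP branch, green chaperones and folding, blue degradation and translocation). XBP1, ASNS, ERO1A and SEL1L are blue on all 3 SALL4-sh arrays, SDF2L1 and DNAJC10 are red on them, and HSPA5 is near white on all 6.

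Set against each other, the 2 main groups of members had different medians. The median log2 fold change was -0.39 over the 10 members of the ATF4-CHOP branch and 0.057 over the 16 chaperones and folding enzymes, beside 0.014 over all genes tested. Taken per array, relative to the Scr-sh mean of each gene, the median of the ATF4-CHOP branch was -0.30, -0.46 and -0.39 in SALL4-sh, against 0.073, 0.027 and -0.084 in Scr-sh. For the chaperones and folding enzymes it was 0.085, 0.11 and -0.0024 in SALL4-sh, against -0.0010, 0.019 and 0.0084 in Scr-sh. The branch values did not overlap between the groups and those of the chaperones did. After cyclic loess normalization the median was -0.47 for the branch and -0.00030 for the chaperones, whose sign is therefore not settled. When single arrays were left out, it ran from -0.46 to -0.40 for the branch and from 0.051 to 0.11 for the chaperones. The 16 chaperones were evenly split, with 8 positive and 8 negative fold changes. The difference between the 2 groups of members was not tested, since both had been listed with these results known.

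The 10 members with the ERSE or ERSE-II elements printed or named above did not move as 1 group. SDF2L1 was higher, XBP1 was lower and 8 were not called, with 4 positive and 6 negative fold changes and a median of -0.030. HSP90B1 holds a further ERSE on the other strand, and HYOU1 holds ERSE-II 2 times. The core of the XBP1 element, TGACGTGG, was in the promoters of HYOU1, where it overlaps an ERSE-II, and DNAJC10, and in 0.795% of all promoters. Both genes had positive fold changes that were not called. The element of ATF4 and C/EBP factors, searched as TGATGNAAT, was in 0 of the 35 windows and in 1.02% of all promoters. A match is a description of the letters in this window and not evidence of binding. Only exact spellings in 1 window per gene were searched, and the ATF4 element only with T as its last letter. The absence of a match therefore does not show that a gene lacks an element.

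Beyond the members, 116 other genes of the same pathways were tested, in 7 lists, and 8 were higher (6.90%) and 8 lower (6.90%) in SALL4-sh, where 4.36% of all genes tested were higher and 4.20% lower. After cyclic loess the counts were 6 higher and 13 lower, beside 505 and 701 of all genes, and after quantile normalization 7 and 13, beside 573 and 657 of all genes. The 12 genes of the eIF2 kinases, eIF2 and its exchange factor eIF2B had 0 calls from limma in the main setting and 0 from the unmoderated test. At an unadjusted limma p under 0.05, 2 were higher and 2 lower, where 13.1% of all genes tested were higher and 10.9% lower. EIF2AK2, the kinase PKR that double-stranded RNA activates and interferon induces, had 155, 156 and 150.3 in SALL4-sh, against 177, 272 and 187 in Scr-sh. It was lower on each SALL4-sh array with its highest value on Scr-sh replicate 2, as for the interferon-stimulated genes above (log2 fold change -0.44, limma adjusted p = 0.210), and without that array the fold change was -0.24. EIF2B1, a subunit of eIF2B, had a log2 fold change of -1.37 (limma adjusted p = 0.0707). It passed the threshold with the 50th percentile filter (adjusted p = 0.0196) and with trend and robust estimation (adjusted p = 0.0375). EIF2S1, the subunit of eIF2 that the kinases phosphorylate, had one of 0.73 (limma adjusted p = 0.104). It passed without Scr-sh replicate 2 (adjusted p = 0.0149) and with array weights (adjusted p = 0.0347).

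Of 12 other transcription factors and processing enzymes of ER stress, CREB3L1 and NUPR1 were lower and 0 were higher. The share lower was 16.7%, beside 4.20% of all genes tested. CREB3L1, a membrane-bound factor cut in the Golgi like ATF6, had 26.2, 26.0 and 25.9 in SALL4-sh, against 44.4, 44.2 and 41.6 in Scr-sh, with the values of each group close together (log2 fold change -0.74, limma adjusted p = 0.0112, or 0.0502 without SALL4-sh replicate 3). NUPR1, a small stress-induced chromatin protein, had a log2 fold change of -0.91 (limma adjusted p = 0.0339), and lost its call without SALL4-sh replicate 1, 2 or 3 or Scr-sh replicate 3 (adjusted p of 0.0745 to 0.106). Of 18 amino acid and one-carbon genes that ATF4 regulates, SHMT2, the serine hydroxymethyltransferase of mitochondria, was lower with 84.5, 62.5 and 83.6 in SALL4-sh, against 160.2, 129 and 172 in Scr-sh (95% interval of the log2 fold change -1.43 to -0.57, limma adjusted p = 0.0251). SHMT2 lost its call without SALL4-sh replicate 1, 2 or 3 or Scr-sh replicate 1 or 3 (adjusted p of 0.0623 to 0.0812). None of the 18 was higher and 5.56% were lower, beside 4.36% and 4.20% of all genes tested. Fold changes were negative for 13 (47.6% of all genes tested), and the median of the list was -0.16. Of 8 genes linked to stress-induced death and growth arrest, 0 were called by limma in the main setting or by the unmoderated test. Across the alternative settings the lowest limma adjusted p was 0.0440 for BCL2L11, 0.0437 for GADD45B and 0.0328 for NDRG1. For the others it stayed above 0.05. At an unadjusted limma p under 0.05, 4 were lower (10.9% of all genes tested). All 8 had negative fold changes (47.6% of all genes tested), with a median of -0.43.

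Of 21 other ER folding enzymes and chaperones tested, CALU was higher and RCN1, P4HB and PDIA5 were lower. This is 4.76% higher and 14.3% lower, where 4.36% and 4.20% of all genes tested were. RCN1 and CALU encode related calcium-binding proteins of the secretory pathway, and they differed in direction. RCN1 averaged 251 ± 17.3 in SALL4-sh and 676 ± 108 in Scr-sh (SD, n = 3 each), a log2 fold change of -1.42 (limma adjusted p = 0.00730), whereas CALU had 791, 844 and 917 in SALL4-sh, against 436, 482 and 505 in Scr-sh (log2 fold change 0.84, limma adjusted p = 0.0124). P4HB, the protein disulfide isomerase that ERO1A oxidises, was lower, as ERO1A was, with 323, 233 and 341 in SALL4-sh, against 620.5, 514 and 601 in Scr-sh (log2 fold change -0.97, limma adjusted p = 0.0275). PDIA5, another isomerase, had a log2 fold change of -0.58 (limma adjusted p = 0.0401). CALU lost its call without SALL4-sh replicate 2 or 3 (adjusted p of 0.0506 to 0.0531), P4HB lost its call without SALL4-sh replicate 1, 2 or 3 or Scr-sh replicate 1 or 3 (adjusted p of 0.0554 to 0.0894), and PDIA5 lost its call without any single array (adjusted p of 0.0669 to 0.115).

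Of 20 other genes of ER-associated degradation, 3 were higher and 1 was lower. This is 15% higher and 5% lower, beside 4.36% and 4.20% of all genes tested. UBE2J1, a ubiquitin-conjugating enzyme of the ER membrane that serves HRD1, had 47.3, 45.5 and 46.3 in SALL4-sh, against 102, 105 and 99.8 in Scr-sh, tight in both groups (log2 fold change -1.14, limma adjusted p = 0.00424). UBE2G2, another conjugating enzyme of this pathway, had a log2 fold change of 0.69, ERLEC1, a lectin that recognises misfolded glycoproteins, one of 0.56, and HERPUD2, a relative of HERPUD1, one of 0.96, all higher. UBE2G2 lost its call without SALL4-sh replicate 1, 2 or 3 or Scr-sh replicate 3 (adjusted p of 0.0745 to 0.0878), ERLEC1 lost its call without SALL4-sh replicate 1, 2 or 3 or Scr-sh replicate 1 or 3 (adjusted p of 0.0524 to 0.0953), and HERPUD2 lost its call without SALL4-sh replicate 1, 2 or 3 or Scr-sh replicate 1 or 3 (adjusted p of 0.0682 to 0.103). Of 25 genes of translocation, signal peptide cleavage and sugar transfer, DAD1, SSR3, SRPRB and SRP54 were higher (16%, beside 4.36% of all genes tested). SEC11A, a catalytic subunit of the signal peptidase, was lower (4%, beside 4.20% of all). SEC11A had 66.4, 58.0 and 60.8 in SALL4-sh, against 123, 151 and 133 in Scr-sh (log2 fold change -1.14, limma adjusted p = 0.00763). Its paralog SEC11C had 80.6, 72.2 and 82.6 in SALL4-sh, against 31.7, 57.7 and 43.9 in Scr-sh, higher on each SALL4-sh array and not called (log2 fold change 0.86, limma adjusted p = 0.0696, or 0.0235 without Scr-sh replicate 2). SSR3, a subunit of the translocon-associated complex, had a log2 fold change of 0.70 and DAD1, a subunit of the oligosaccharyltransferase, one of 0.76. SRPRB, of the receptor of the signal recognition particle, had one of 0.87, and SRP54, of the particle itself, one of 0.76. SSR3 lost its call without SALL4-sh replicate 1, 2 or 3 or Scr-sh replicate 1 or 3 (adjusted p of 0.0531 to 0.0667), and DAD1 lost its call without SALL4-sh replicate 1, 2 or 3 or Scr-sh replicate 1 (adjusted p of 0.0587 to 0.0771). SRPRB lost its call without SALL4-sh replicate 1, 2 or 3 or Scr-sh replicate 2 or 3 (adjusted p of 0.0725 to 0.124), and SRP54 lost its call without SALL4-sh replicate 1, 2 or 3 or Scr-sh replicate 1 or 3 (adjusted p of 0.0892 to 0.140). After cyclic loess both lost it (limma adjusted p = 0.0570 for SRPRB and 0.0668 for SRP54), and SRPRB also after quantile normalization (adjusted p = 0.0522). Both lost it with no filter and with the unmoderated test, and SRP54 with the replicate block. Under all 16 alternative settings RCN1, UBE2J1 and SEC11A kept their calls.

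**Figure D4:**
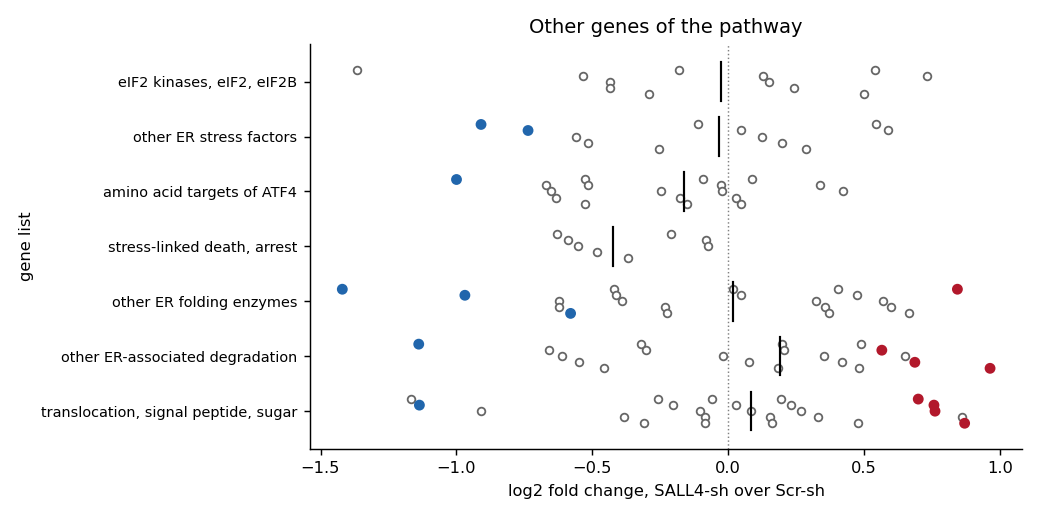
Change in SALL4-sh relative to Scr-sh, as log2 fold change (x axis), of the 116 other pathway genes tested, by list. Points are genes, filled red (higher) or blue (lower) past an adjusted p of 0.05 from limma, and black bars are list medians. The lists of death and growth arrest and of amino acid targets lie mostly below 0, with medians of -0.43 and -0.16.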

How the data were processed

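RNA was measured on 6 Affymetrix arrays, and the authors deposited the intensity of 32321 probe sets on each, normalized, on a linear scale with every lower value set to 8. The floor held 38.8% to 40.4% of an array. The submitters' processing notes name RMA. Its version and the genome build are not given in the sources used here. Arrays have no read depth, and their number limits the precision.

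Here log2 was taken, and the brightest of the probe sets with 1 symbol stood for each of 18404 genes. Groups were compared across all genes with limma 3.58.1 in R 4.3.3 (lmFit, eBayes, Benjamini-Hochberg, threshold 0.05). Genes were kept if their mean log2 intensity exceeded the 25th percentile over probe sets. That percentile equalled the floor, so the filter removed the 3893 genes at 8 on all 6 arrays, which have no spread (prior degrees of freedom 2.35 with and 0.422 without the filter), and 14511 genes were tested. In 10 simulated sets of this comparison with 200 changed genes each (about 14508 genes tested), the filtered test recovered 31.9% of 2-fold and 78.5% of 4-fold changes with 4% false calls. Without the filter (18404 genes), 15.4% and 43.6% were recovered with 10.6% false calls. Of 1.5-fold changes, 5.52% and 4.48% were recovered.

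Members, lists, role groups and settings were chosen with earlier results of these data known. Every member is accounted for. Array values are given for called members, members whose groups did not overlap, the sensors and ATF4. Other lists name up to 4 called genes with the smallest adjusted p, and EIF2AK2. EIF2B1, EIF2S1, SEC11C, SRP54, BCL2L11, GADD45B and NDRG1 were named after their values were seen. Alternatives were 3 further normalizations, other filters, eBayes with trend and robust, array weights, a replicate block, a one-way ANOVA without moderation (a test the paper names for the arrays in its results, applied here per gene with the same adjustment), averaged probe sets, and each array left out. Promoter motifs came from RefSeq (GRCh38.p14). Protein sequences were not analysed here.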

Additional observations from a re-analysis of the deposited data

How the results depend on the processing

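Under the 16 alternatives none of the genes named here that limma called changed direction, and 5 members that were not called did so. ERO1B had 0.066 with array weights, and with single arrays left out ERO1B ran from -0.27 to 0.074, HERPUD1 from -0.30 to 0.19, MANF from -0.28 to 0.068, SEC61B from -0.32 to 0.069 and SYVN1 from -0.14 to 0.088, all as log2 fold changes. SALL4 kept its call under each alternative, with log2 fold changes of -2.07 to -1.87 when single arrays were left out. With no filter, 2 members were higher and 2 lower, 5 other pathway genes higher and 4 lower, and 218 of all genes higher and 244 lower. This setting tests genes that have no spread. With the one-way ANOVA, the unmoderated test, these counts were 0 and 0, 3 and 4, and 94 and 121. Trend and robust estimation gave 3 members higher, beside 749 of all genes higher and 701 lower. Array weights gave 2 members higher and 18 other pathway genes lower, beside 928 of all genes higher and 778 lower. The main setting gave 633 and 610 of all genes. Cyclic loess, quantile normalization and the 50th percentile filter each gave 13 other pathway genes lower. For all genes, cyclic loess gave 505 higher and 701 lower, quantile normalization 573 and 657, and the 50th percentile filter 865 and 771 of 11152. The median log2 fold change of the chaperones and folding enzymes was -0.00030 after cyclic loess, 0.010 after quantile normalization and 0.11 with array weights. For these shifts the cause was not tested.

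With 1 array left out, 0 to 2 members were higher and 2 to 4 lower, 0 to 10 other pathway genes higher and 3 to 13 lower, and 140 to 854 of all genes higher and 228 to 641 lower. The chaperone median ran from 0.051 to 0.11. The highest counts over all genes, 854 and 641, came without Scr-sh replicate 2, and leaving out any other array gave 140 to 269 higher and 228 to 349 lower.

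With the replicate number as a block, 1 member was higher and 4 were lower, since ATF3 lost its call (adjusted p = 0.0981), and 3 other pathway genes were higher. Of all genes, 431 were then higher and 466 lower. Deviations of same-numbered arrays from their group means correlated at 0.14, 0.11 and -0.00069, and those of differently numbered arrays at -0.15 to 0.034. Replicates 1 and 2 of SALL4-sh correlated best with their own number, and replicate 3 with replicate 2 of Scr-sh (0.031). These values do not settle whether the numbers mark pairs. The labels do not say so, and the main comparison does not treat them as pairs. In the simulated sets, whose changes were in brighter genes only, 5.52% of 1.5-fold and 31.9% of 2-fold changes were recovered. Each set held 200 changed genes, where the arrays gave 633 genes higher and 610 lower. The recovered shares may therefore not carry over to the members, some of which are dimmer. A member that was not called may still have changed by such amounts.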
